A study of Mus musculus with 5 samples.

Results

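BMP and activin signaling was followed through 10 genes in the uterus of mice that had received seminal plasma (SP) of aged or young males. The genes were chosen by name from the 28666 genes of the count table, and all 10 were listed. They are the BMP ligands Bmp2, Bmp4 and Bmp7, the activin subunits Inhba and Inhbb, the receptors Bmpr1a, Acvr1 and Bmpr2, and the secreted antagonists Fst and Grem1. RNA of whole uteri was sequenced from ICR females aged 6 to 8 weeks. Females of both groups were pseudopregnant after caging with a vasectomized C57BL/6 male, and uteri were taken before any embryo transfer. The groups were defined by the age of the male, and the labels do not say whether other conditions differed between them. The aged-SP group had 2 libraries (replicates 1 and 4) and the young-SP group had 3 (replicates 1, 2 and 4). The deposited design text places collection 3.5 days after caging, while the methods of the study count in days post coitum and give a different number. A further young-SP library, left out by the study as an outlier, was not analysed here. Replicate numbers 2 and 3 of the aged-SP group are not among the samples either, and no reason is given.

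BMPs and activins are secreted dimers of the TGF-beta superfamily. They bring together type II and type I receptor kinases, which phosphorylate SMAD1, SMAD5 and SMAD9 for BMPs or SMAD2 and SMAD3 for activins, and these enter the nucleus with SMAD4. Extracellular proteins such as follistatin and gremlin bind the ligands and keep them from the receptors. In the mouse uterus, BMP2 is known for its need in the decidualization of the stroma, and BMPR2, ACVR1, BMPR1A and follistatin for roles in uterine function and implantation.

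Inhbb, which encodes the beta B subunit of activin B and inhibin B, differed most among these genes, with a level 4.73-fold higher in the aged-SP group. Its close relative Inhba did not show a difference of that size. The 250 bases before the annotated start of both genes are given to show how the regions in front of the pair differ, in capitals the motif matches that a search of both strands found. Both sequences are from RefSeq on GRCm38.p6, written 5′ to 3′ on the strand of the gene. Of the 10 genes, 7 had an entry in the promoter table. Bmp2, Bmp7 and Fst had none there.
Inhbb, chr1:119422249-119422498, minus strand: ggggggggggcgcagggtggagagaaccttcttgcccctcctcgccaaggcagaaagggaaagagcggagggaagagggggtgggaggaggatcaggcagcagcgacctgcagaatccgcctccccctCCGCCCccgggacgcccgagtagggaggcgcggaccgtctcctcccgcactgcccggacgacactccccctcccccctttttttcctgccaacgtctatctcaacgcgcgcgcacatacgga
Inhba, chr13:16011601-16011850, plus strand: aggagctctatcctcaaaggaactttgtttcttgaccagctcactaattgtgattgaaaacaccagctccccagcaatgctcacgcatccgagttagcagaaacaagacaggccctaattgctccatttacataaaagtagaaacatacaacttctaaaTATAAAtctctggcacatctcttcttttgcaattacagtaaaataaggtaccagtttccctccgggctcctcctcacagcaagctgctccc
The capitals in the Inhbb region mark the reverse complement of GGGCGG, the core sequence of the GC box. Those in the Inhba region mark TATAAA, a sequence that the TATA-binding protein can bind. Whether either match acts as a promoter element was not tested. The match in the Inhbb region begins 122 bases before the start, and that in the Inhba region 91 bases before it. GGGCGG was found in 32.7% of 32851 promoter regions of this length, and TATAAA in 12.4%. GC content was 68.0% in the Inhbb region and 43.2% in the Inhba region, against a median of 52.4% over all regions. The observed to expected ratio of CpG pairs was 0.727 for Inhbb and 0.282 for Inhba. Searched as well were GGCGCC, an element linked to BMP-activated SMADs, and TGACGTCA, the cAMP response element, which occur in 9.59% and 1.55% of all regions. Neither sequence is in either window.

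Total counts per library were 15071914 to 16728601, and 17013 genes were tested after a filter on low counts. The test was edgeR's quasi-likelihood F-test, with p-values adjusted by Benjamini-Hochberg over the tested genes, and a gene was called where the adjusted p was under 0.05 and the log2 fold change was past 1 in either direction. This called 0.147% of the tested genes. Markers of epithelium, stroma and myometrium (7 of 7 listed for each) were above the count floor in the libraries, while of 7 ovary markers Fshr and Cyp19a1 were not listed, Zp3 was at or under 3 counts in every library, and Star was at 30 and 65.3 CPM (counts scaled to the library size) in the aged-SP libraries and at 22.1, 16.4 and 37.6 CPM in the young-SP libraries. The oviduct gene Ovgp1 was at 50.3 and 119 CPM against 65.9, 35.1 and 233 CPM, and the part of either tissue in the results was not tested. Young-SP replicate 1 stood apart from the other young-SP libraries: the summed level of 5 proliferation genes was 682 CPM there, against 383 in replicate 2 and 271 in replicate 4, and that of 6 uterine gland genes was 525 against 57.5 and 47.3. Values without that library are given beside each named gene whose call they change. Leaving it out raised the edgeR calls over all tested genes from 25 to 578. Nothing in the labels says that the libraries of a group come from separate animals, so p-values measure only the spread between these libraries. Pairs of libraries within a group differed by more than counting noise (chi-square per degree of freedom 17 to 44). The source of that spread was not tested.

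Of the 10 genes, 9 passed the filter on low counts and 0 were called by edgeR. An unadjusted p under 0.05 was reached by 1 gene in the higher direction (Inhbb) and 1 in the lower (Fst), where the backgrounds over all tested genes were 9.62% and 9.36%. The libraries of the groups did not overlap for 4 genes that were higher in the aged-SP group (Bmp4, Inhba, Inhbb and Bmpr2) and for 1 that was lower (Fst). Over all tested genes this held for 19.5% in the higher and 19.3% in the lower direction. DESeq2's Wald test called 1 of the genes, Inhbb, where it called 1.69% of genes as higher and 1.92% as lower. The median log2 fold change of the 9 genes was 0.15, and that of all tested genes 0.01. In bulk tissue, fewer cells of a type and less RNA per cell cannot be told apart.

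**Figure D1:**
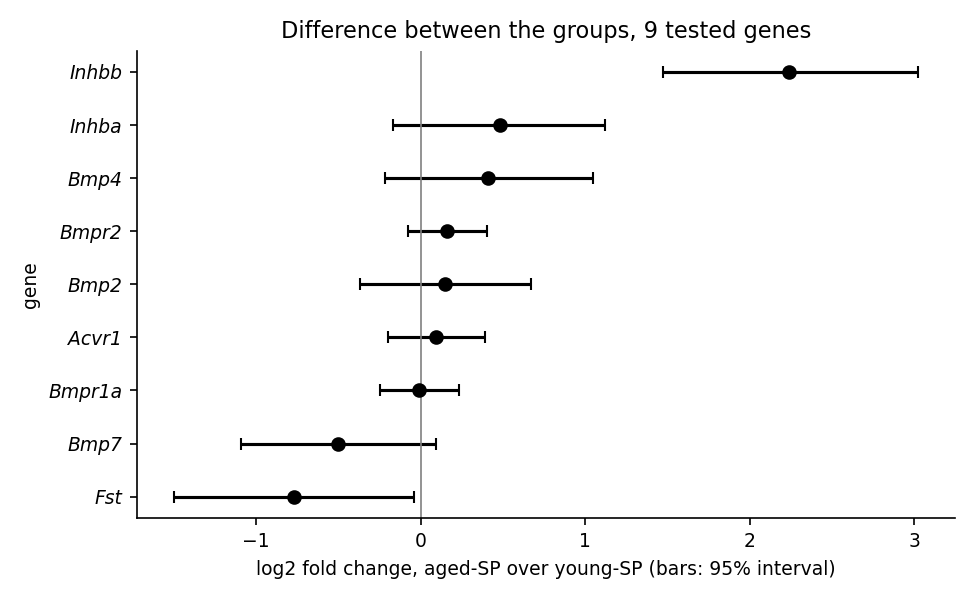
Log2 fold change of the aged-SP group (2 libraries) over the young-SP group (3 libraries) for the 9 tested genes, as points with 95% intervals from edgeR. The interval of Inhbb, 1.47 to 3.02, lies to the right of 0 and that of Fst, -1.50 to -0.04, to the left, while the other 7 include 0.

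Levels per gene length (FPKM, counts scaled by gene length and library total) spanned the range from receptor to near absence. The type I receptor Bmpr1a was at the top, with 27.4 ± 1.57 FPKM (SD, n = 5 libraries of both groups). Below it came Fst with 13.8 ± 5.35, Inhbb with 11.5 ± 10, Bmpr2 with 9.12 ± 0.677, Bmp7 with 7.96 ± 2.09, Bmp4 with 7.58 ± 1.83 and Acvr1 with 5.15 ± 0.311 FPKM. The ranges of these 6 neighbours overlapped from one to the next. Bmp4 was above Acvr1 in all 5 libraries, though both round to 4.72 FPKM in young-SP replicate 1, while the order of the other neighbours differed between libraries. Bmp2 with 2.39 ± 0.323, Inhba with 1.22 ± 0.283 and Grem1 with 0.0518 ± 0.034 FPKM each lay below the gene before them in all 5 libraries, with no overlap of ranges. The place of Inhbb depended on the group: its mean was 21.8 FPKM over the aged-SP libraries against 4.64 FPKM over the young-SP ones.

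**Figure D2:**
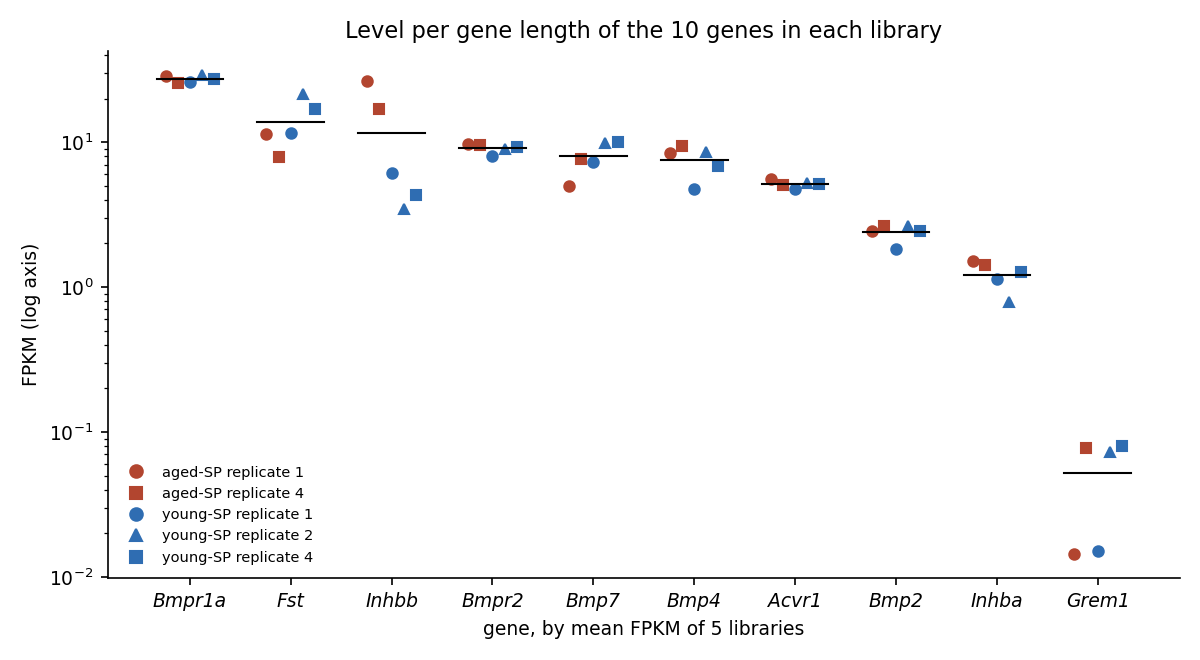
FPKM (log axis) of the 10 genes in each of the 5 libraries, ordered by the mean over the libraries, which the black line marks. Inhbb is the gene whose aged-SP points (26.6 and 16.9) lie farthest above its young-SP points (3.43 to 6.16), and Bmpr1a, Bmpr2 and Acvr1 have the tightest points.

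None of the 3 BMP ligands passed the test, and the 95% interval of each included 0. Bmp2 (chr2:133552159-133562885, plus strand) is the ligand known for its part in decidualization. It was at 8.71 and 9.34 CPM in aged-SP replicates 1 and 4 and at 6.57, 9.10 and 8.74 CPM in young-SP replicates 1, 2 and 4. The groups overlapped, and the log2 fold change was 0.15 (95% interval -0.37 to 0.67, edgeR adjusted p = 0.737). Bmp4 (chr14:46383520-46390669, minus strand), a ligand close to Bmp2 in sequence, was at 19.0 and 21.1 CPM in the aged-SP libraries and at 10.7, 18.9 and 15.6 CPM in the young-SP libraries. The groups did not overlap, but aged-SP replicate 1 and young-SP replicate 2 were nearly equal, and the log2 fold change was 0.41 (95% interval -0.22 to 1.05, edgeR adjusted p = 0.428). Exons of Bmp4 overlap those of Gm15217 on the other strand, and 2.18% of the 50-base stretches of its transcripts are shared with that gene. Bmp7 (chr2:172868012-172940321, minus strand), a ligand of another BMP subgroup, was at 20.3 and 30.9 CPM in the aged-SP libraries and at 29.3, 38.5 and 40.9 CPM in the young-SP libraries. It was the ligand with the lower value in the aged-SP group, yet aged-SP replicate 4 lay above young-SP replicate 1, and the log2 fold change of -0.50 (95% interval -1.09 to 0.09) gave an edgeR adjusted p of 0.324.

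The activin subunits parted. Inhbb (ENSMUSG00000037035, chr1:119415465-119422248, minus strand) has 2 exons, overlaps no exon of another gene and shares none of its 50-base stretches with one. Its counts were 1893 and 1128 in the aged-SP libraries and 422, 242 and 277 in the young-SP libraries. As CPM these are 114 and 72.1 against 26.4, 14.3 and 18.5, so that the lowest aged-SP library was above the highest young-SP library. The means were 93.3 ± 29.9 CPM (SD, n = 2) and 19.7 ± 6.14 CPM (SD, n = 3), and the log2 fold change was 2.24 (SE 0.31, 95% interval 1.47 to 3.02). With edgeR the unadjusted p was 0.00051 and the adjusted p was 0.0734, short of the threshold. The adjusted p ranged from 4.68e-09 with DESeq2 to 0.254 over the alternatives, and leaving out young-SP replicate 1 gave a log2 fold change of 2.50 and an adjusted p of 0.0214 with edgeR.

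Inhba (chr13:16011851-16031621, plus strand) encodes the beta A subunit of activin A. It was at 9.79 and 9.02 CPM in the aged-SP libraries and at 7.32, 4.91 and 8.08 CPM in the young-SP libraries. The groups did not overlap, with a log2 fold change of 0.48 (95% interval -0.17 to 1.12, edgeR adjusted p = 0.377). That upper bound lies below the lower bound for Inhbb, 1.47. Inha, the alpha subunit that pairs with a beta subunit to make inhibin, was at 5.44 and 4.67 CPM in the aged-SP libraries and at 4.25, 4.85 and 4.41 CPM in the young-SP libraries, with overlap.

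The 6 gland markers summed to 4110 and 2950 CPM in the aged-SP libraries and 525, 57.5 and 47.3 CPM in the young-SP libraries. The aged-SP libraries thus had the higher sums, as for Inhbb. Of the 6 genes, 4 were higher in the aged-SP group without overlap and 1 lower, where all tested genes gave 19.5% and 19.3%. EdgeR called 0 of the 6. An unadjusted p under 0.05 was found for 1 in the higher direction (Spink1) and 1 in the lower (Cxcl15), against 9.62% and 9.36% of all tested genes. Spink1 was at 153 CPM in aged-SP replicate 1 but at 12.2 CPM in aged-SP replicate 4, close to the 11.1, 10.8 and 7.74 CPM of the young-SP libraries. The proteases Prss28 (1450 and 764 against 90.7, 0.355 and 0.267 CPM) and Prss29 (2460 and 2140 against 385, 2.96 and 11.5 CPM) made up most of the gland sum in the aged-SP libraries and in young-SP replicate 1. Their unadjusted edgeR p-values were 0.0594 and 0.0742. Foxa2, the transcription factor that defines the glands, was at 10.6 and 12 CPM in the aged-SP libraries and at 8.51, 14.1 and 11.6 CPM in the young-SP libraries, with overlap. The part of the gland genes in the Inhbb result was not tested.

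The 3 receptors, together with the ligand Bmp2, differed least among the 9 tested genes. Bmpr1a (chr14:34410734-34503341, minus strand), a type I receptor for BMP2 and BMP4, was at 185 and 163 CPM in the aged-SP libraries and at 168, 182 and 175 CPM in the young-SP libraries. Its log2 fold change was -0.01 (95% interval -0.25 to 0.23, edgeR adjusted p = 0.974), and 3.77% of its 50-base stretches are shared with Gm17110 on the other strand. Acvr1 (chr2:58388644-58567157, minus strand), a type I receptor known for binding BMP7, was at 27.3 and 24.5 CPM in the aged-SP libraries and at 23.0, 24.6 and 25.2 CPM in the young-SP libraries. The groups overlapped, and the log2 fold change was 0.09 (95% interval -0.20 to 0.39, edgeR adjusted p = 0.700). Bmpr2 (chr1:59763400-59879014, plus strand), a type II receptor for BMPs, was at 177 and 173 CPM in the aged-SP libraries and at 146, 157 and 168 CPM in the young-SP libraries. The aged-SP libraries were both higher, by a small margin, with a log2 fold change of 0.16 (95% interval -0.08 to 0.40, edgeR adjusted p = 0.430). Each of the 3 intervals stayed short of a log2 fold change of 1 in either direction. With so few libraries this does not exclude a larger change.

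Among the antagonists, Fst (ENSMUSG00000021765, chr13:114452262-114458949, minus strand) encodes follistatin, which binds activins almost irreversibly and several BMPs more weakly. Its counts were 638 and 420 in the aged-SP libraries and 625, 1202 and 855 in the young-SP libraries. As CPM these are 38.6 and 26.9 against 39.1, 71.1 and 57.1. The groups did not overlap, but aged-SP replicate 1 and young-SP replicate 1 were nearly equal. The log2 fold change was -0.77 (SE 0.29, 95% interval -1.50 to -0.04), a level 1.70-fold lower, with an unadjusted p of 0.0425 and an edgeR adjusted p of 0.248. The adjusted p ranged from 0.0738 to 0.544 over the alternatives. Exons of Fst overlap those of the antisense gene Gm47040, which shares 1.40% of its 50-base stretches. Since the strand setting of the counting is not given in the sources used here, reads from the overlapping stretches of Fst, Bmp4 and Bmpr1a cannot be told apart from those of their antisense partners. The sum of 7 stroma markers was 1930 and 2210 CPM in the aged-SP libraries and 2240, 3480 and 3570 CPM in the young-SP libraries. Of the 7 genes, 4 had an unadjusted edgeR p under 0.05, all lower, where 9.36% of all tested genes did. The part of the stroma genes in the Fst result was not tested.

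Grem1 (chr2:113746164-113758646, minus strand), encoding gremlin 1, an antagonist of BMP2, BMP4 and BMP7, was near the limit of detection. Its counts were 1 and 5 in the aged-SP libraries and 1, 5 and 5 in the young-SP libraries, so it was left out by the filter and no fold change is given.

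The balance of follistatin to its ligands combined the opposite differences of Fst and Inhbb. The ratio of Fst to the sum of Inhba and Inhbb, in FPKM, was 0.402 and 0.433 in the aged-SP libraries and 1.58, 5.10 and 3.02 in the young-SP libraries. Follistatin transcripts were thus fewer than those of the activin subunits in both aged-SP libraries and more in the 3 young-SP libraries. The mean log2 ratio was -1.26 ± 0.08 (SD, n = 2) against 1.53 ± 0.85 (SD, n = 3), a difference of -2.79. The exact permutation test, two-sided, gave p = 0.2, which is the smallest value that 2 against 3 libraries allow. The ratio is built from values already described and adds no independent evidence. The ratio of Grem1 to the sum of Bmp2, Bmp4 and Bmp7 was 0.000914 and 0.00391 in the aged-SP libraries and 0.00108, 0.00347 and 0.00411 in the young-SP libraries, and rests on at most 5 Grem1 counts in a library.

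**Figure D3:**
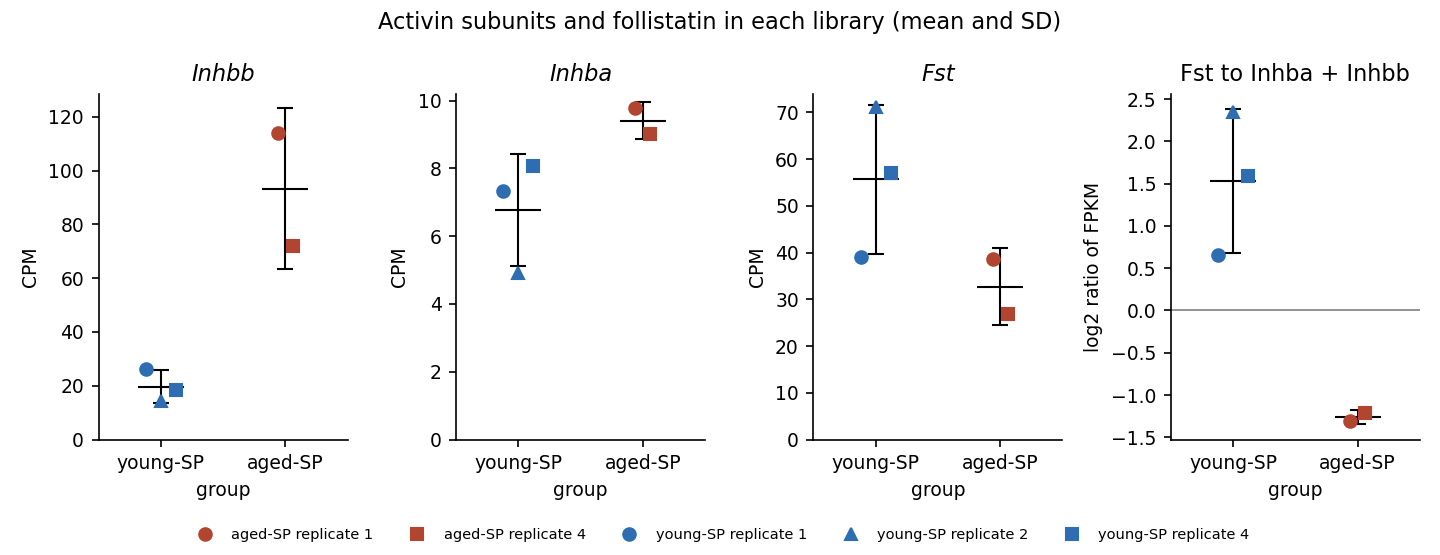
CPM of Inhbb, Inhba and Fst, and log2 ratio of Fst to summed Inhba and Inhbb FPKM, in each library, with the group mean as a horizontal line and the SD as bars. Both aged-SP libraries lie below 0 in the ratio (-1.31 and -1.21) and the 3 young-SP libraries above it (0.66 to 2.35).

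The rest of the pathway was read from 70 other genes in 7 lists of ligands, receptors, coreceptors, antagonists, SMADs with their ubiquitin ligases, and target genes. Of these, 65 were listed in the table and 47 were tested. EdgeR called 0 of them, DESeq2 called 1 higher (Lefty1) and 4 lower (Gdf7, Bambi, Id1 and Id3), and limma-voom called 0. Over all genes, DESeq2 called 1.69% as higher and 1.92% as lower. An unadjusted edgeR p under 0.05 was reached by 12 in the higher and 7 in the lower direction, 25.5% and 14.9% of those tested, where all tested genes gave 9.62% and 9.36%. The share in the higher direction was 12.8% to 20.4% when 1 library was left out, against 6.44% to 11.6% for all tested genes. In the lower direction it was 6.25% to 21.3%, against 5.57% to 11.1%, and the lowest share, without aged-SP replicate 1, stood beside 5.57%. The median log2 fold change over the 47 genes was 0.09. Since the lists were chosen with earlier results of these data known, the shares given here and for each list below are description only.

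**Figure D4:**
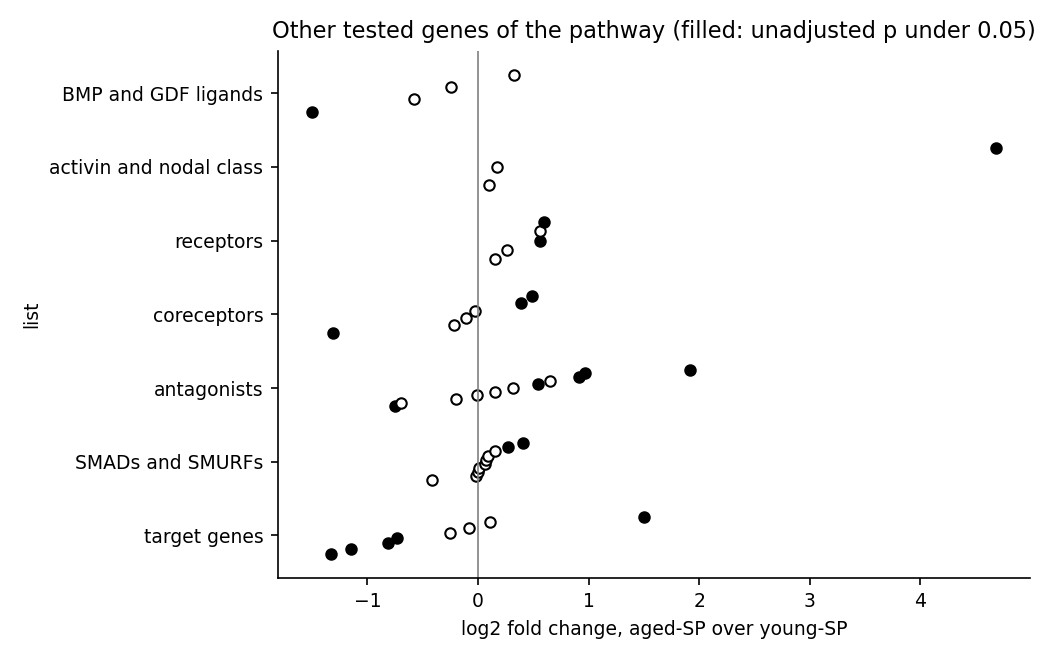
Log2 fold change (aged-SP over young-SP, edgeR) of the 47 other tested pathway genes, 1 point a gene, by list. Filled points have an unadjusted p under 0.05, and 4 of the 8 target genes are filled to the left of 0 while the SMADs lie close to it.

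Of the 11 other BMP and GDF ligands, 4 were tested. Gdf7, a ligand of the GDF5 to GDF7 subgroup, was at 31.5 and 31.0 CPM in the aged-SP libraries and at 60.9, 97.8 and 106 CPM in the young-SP libraries. Both aged-SP libraries lay well below every young-SP library, and its log2 fold change was -1.50 (SE 0.26, edgeR adjusted p = 0.0829, DESeq2 adjusted p = 5.47e-06). Without young-SP replicate 1 the log2 fold change was -1.72 and the edgeR adjusted p was 0.00811. Leaving out young-SP replicate 2 or 4 gave no call for Gdf7. Its log2 fold change was -1.72 to -1.35 over the alternatives. At 46.0 FPKM over the 5 libraries, Gdf7 was the most abundant ligand of its list and above the 3 BMP ligands of the main set. In the activin and nodal class, 3 of the 8 listed genes were tested. Lefty1, an inhibitor of nodal, had 58 counts (27 and 31) in the aged-SP libraries and 3 (0, 1 and 2) in the young-SP ones. It thus passed the filter on low counts only through the aged-SP libraries, the group in which it was high. The ratio was 28.5 per total count (95% counting interval 9.28 to 142), which covers counting error only. Its edgeR adjusted p of 0.0734 (0.029 without young-SP replicate 1) and its place among the higher tested genes are therefore description only. Lefty1 shares 17.9% of its 50-base stretches with Lefty2, so the split of reads between the pair is uncertain. Gdf11 had the highest FPKM of that class, with a log2 fold change of 0.10 that lay between -0.05 and 0.20 over the alternatives.

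All 5 tested receptors outside the main set had positive log2 fold changes, between 0.15 and 0.60, and none passed the adjusted threshold. The value for Acvrl1 turned to -0.13 when aged-SP replicate 4 was left out. Acvr1b, the main type I receptor for activins, was at 61.8 and 47.5 CPM in the aged-SP libraries and at 38.7, 36.1 and 36.3 CPM in the young-SP libraries. The libraries did not overlap, and the log2 fold change was 0.56 (SE 0.13, edgeR adjusted p = 0.128). Acvr2b, a type II receptor for activins, had a log2 fold change of 0.60 (edgeR adjusted p = 0.230). Acvrl1, an endothelial type I receptor with the highest FPKM of the list, had one of 0.15. Of the coreceptors, Bambi, a decoy receptor that lacks the kinase domain, was at 14.9 and 17.7 CPM in the aged-SP libraries and at 23.1, 52.9 and 45.3 CPM in the young-SP libraries. The groups did not overlap, with a log2 fold change of -1.31 (SE 0.37, edgeR adjusted p = 0.163, DESeq2 adjusted p = 0.00887). Leaving out young-SP replicate 1 gave -1.60 and an edgeR adjusted p of 0.0183. Tgfbr3, or betaglycan, which presents TGF-beta and helps inhibin bind, had a log2 fold change of 0.49 (edgeR adjusted p = 0.187).

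Among 11 other tested antagonists, 4 had an unadjusted p under 0.05 in the higher and 1 in the lower direction. Over all tested genes, 9.62% and 9.36% did so. Nbl1, a member of the DAN family and the most abundant of the list, was at 362 and 448 CPM in the aged-SP libraries and at 206, 181 and 259 CPM in the young-SP libraries. The groups did not overlap, and the log2 fold change was 0.91 (SE 0.18, edgeR adjusted p = 0.1). Chrd, or chordin, an antagonist of BMP2 and BMP4, was at 33.2 and 36.6 CPM in the aged-SP libraries and at 22.5, 24.8 and 25 CPM in the young-SP libraries, with a log2 fold change of 0.54 (edgeR adjusted p = 0.109). The SMAD list had smaller log2 fold changes, between -0.42 and 0.41 for its 10 tested genes. An unadjusted edgeR p under 0.05 was reached by 2 of them in the higher direction (Smurf1 and Smad5) and 0 in the lower. The groups did not overlap for 4 that were higher and 0 that were lower, where all tested genes gave 19.5% and 19.3%. Smad5, a BMP SMAD, had one of 0.27 and Smurf1, a ubiquitin ligase that acts on BMP SMADs, one of 0.41 (edgeR adjusted p = 0.200 and 0.150). Smad4, shared by both branches and the most abundant of the list, had one of 0.09. Smad6 and Smad7 had overlapping groups and log2 fold changes of 0.00 and 0.01.

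Of the 8 target genes, all were tested. An unadjusted edgeR p under 0.05 was reached by 4 in the lower direction (Id1, Id2, Id3 and Msx1) and 1 in the higher (Wnt4). These are 50% and 12.5% of the list, where all tested genes gave 9.36% and 9.62%. The list was chosen with earlier results of these data known, so its shares are description only. Id1, Id2 and Id3 encode inhibitors of basic helix-loop-helix factors and are classic early targets of BMP SMADs. Id3 was at 17.2 and 24.8 CPM in the aged-SP libraries and at 48.2, 64.4 and 46.5 CPM in the young-SP libraries. Its log2 fold change was -1.33 (SE 0.23, edgeR adjusted p = 0.0829, DESeq2 adjusted p = 1.29e-05), with no overlap of the groups. It was -1.41 without young-SP replicate 1 (edgeR adjusted p = 0.0451) and -1.62 to -1.10 over the alternatives. Id3 was not called when young-SP replicate 2 or 4 was left out. Id1 was at 21.8 and 20.4 CPM in the aged-SP libraries and at 55.1, 51.0 and 34.6 CPM in the young-SP libraries. The groups were again apart, with a log2 fold change of -1.15 (SE 0.22, edgeR adjusted p = 0.0957, DESeq2 adjusted p = 0.000236). Id2, the most abundant target gene, was at 89.5 and 154 CPM in the aged-SP libraries and at 199, 178 and 231 CPM in the young-SP libraries, with a log2 fold change of -0.73 (edgeR adjusted p = 0.221). The fourth member of that family, Id4, had overlapping groups and a log2 fold change of 0.11, which lay between -0.26 and 0.40 over the alternatives. When 1 young-SP library was left out, 2 to 4 target genes had an unadjusted edgeR p under 0.05 in the lower direction. This is 25% to 50% of the list, against 6.18% to 11.1% for all tested genes. The stroma sums given beside Fst were also lower in the aged-SP libraries, and the summed proliferation genes were at 227 and 251 CPM there against 682, 383 and 271 CPM. The part of either in the results for Gdf7, Bambi, Id1 and Id3 was not tested.

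**Figure D5:**
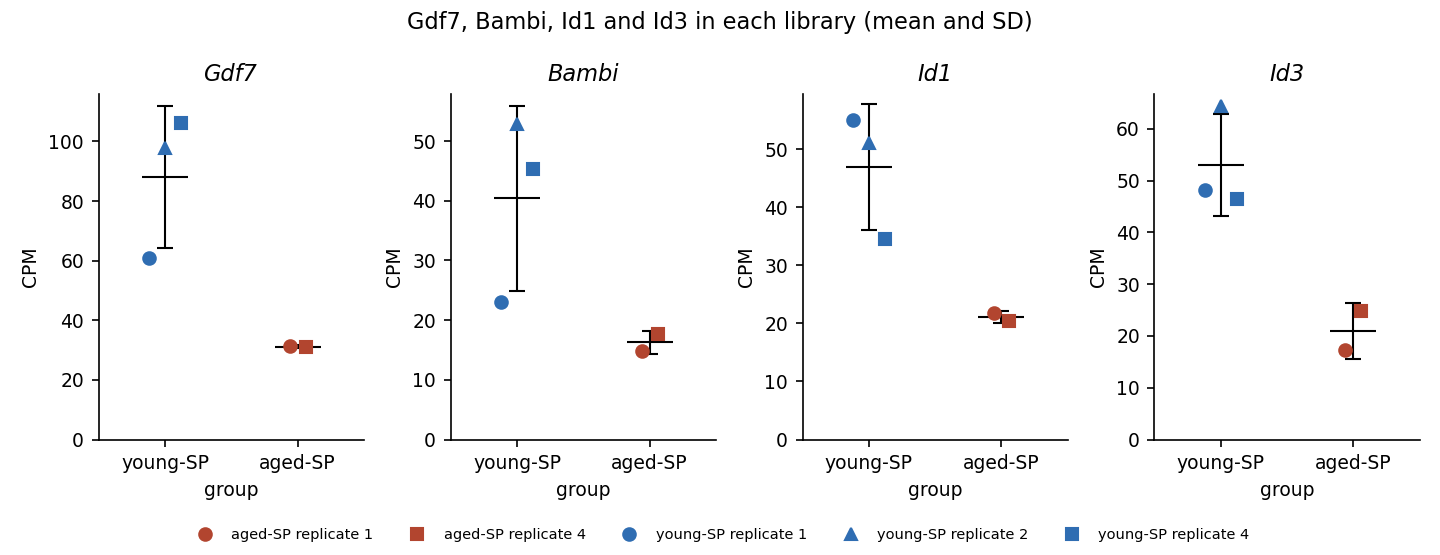
CPM of Gdf7, Bambi, Id1 and Id3 in each library, with the group mean as a horizontal line and the SD as bars. In each panel both aged-SP libraries lie below the 3 young-SP libraries, with the narrowest gap for Bambi, between 17.7 and 23.1 CPM.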

How the data were processed

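RNA of whole uteri was measured in 5 libraries, grouped by the sample titles into 2 aged-SP and 3 young-SP samples. The authors prepared libraries with the NEBNext Ultra kit, aligned the reads with HISAT2 (2.1.0) and deposited unnormalized counts per gene. HTSeq 0.6.0 and Bowtie2 2.2.3 are also named in the submitters' processing notes. The deposited FPKM values are the counts divided by gene length and library total, and served here for levels and ratios only. 0 columns of values per sample were left unused. The deposited comparison columns (fold changes and p-values) were not used. Positions are those of the files (GRCm38), and 27015 of 28666 are the same in GENCODE M21, that of Fst not being among them.

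The main test was edgeR 4.0.16 (filterByExpr, TMM factors 0.99 to 1.02, glmQLFit and glmQLFTest) under R 4.3.3, with limma 3.58.1 and DESeq2 1.42.0 as alternatives, the latter being the tool of the study. Tables and plots were made in Python 3.11.15 (matplotlib 3.10.9, scipy 1.17.1, pandas 2.3.3, numpy 2.4.6). CPM are counts scaled to the library size after TMM. The biological coefficient of variation was 25.1%. Total counts per library were 15071914 to 16728601. A count of 3 or fewer was taken as the floor, and intervals on counts cover counting error alone, without molecular identifiers. The code was tested on simulated data. Named were all 10 genes and, of each other list, any called gene, the 2 smallest unadjusted p-values under 0.05 and the highest mean FPKM. Inha, Id4, Atoh8, Msx1, Msx2, Wnt4, Smad6 and Smad7 were added after their values were seen. The genes and lists were chosen with earlier results of these data known. Alternatives were other scaling, filters and tests, a replicate block and leaving out each library. The replicate numbers are shared by 2 libraries of each group, whose deviations correlated at 0.152 and 0.136, which is too few pairs to show that the numbers pair the samples. Protein sequences were not used here.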

Additional observations from a re-analysis of the deposited data

How the results depend on the processing

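Genes called by edgeR numbered 25 of all tested, 632 with DESeq2, 203 with no filter on low counts, 2 with the replicate block and 1 to 578 when 1 library was left out (1 and 49 without aged-SP replicates 1 and 4, and 578, 3 and 2 without young-SP replicates 1, 2 and 4). Of the 10 genes, 0 were called, against 1 (Inhbb) with DESeq2, 1 with no filter (adjusted p = 0.0223) and 0 to 1 when 1 library was left out. Of the other pathway genes, 0 were called, against 5 with DESeq2, 3 with no filter (Id3, Gdf7 and Lefty1) and 0 to 5 when 1 library was left out, the 5 without young-SP replicate 1 being Id3, Bambi, Gdf7, Lefty1 and Bmpr1b. The cause was not tested. Where an aged-SP library is left out, the lone sample is assumed to vary like the others.

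Of the alternative log2 fold changes of the 9 tested genes, 111 kept their direction and side of the threshold, 3 of Inhbb passed it, and 3 of Bmpr1a changed sign. The Bmpr1a value was 0.0185 with the replicate block and -0.10 to 0.079 when 1 library was left out, 0.0188 being the value without young-SP replicate 2. Inhbb stayed between 1.87 and 2.54, Fst between -1.05 and -0.53 and Bmp7 between -0.84 and -0.23 over all alternatives. The replicate block gave an adjusted p of 0.130 for Inhbb and changed no call among these genes. The log2 difference of the Fst ratio was -3.23 to -2.38, and that of the Grem1 ratio -1.45 to 0.65 when 1 library was left out, the latter changing sign without aged-SP replicate 1. Among the fits that left out a young-SP library, Fst had an unadjusted edgeR p under 0.05 only without replicate 1. Its log2 fold change was -1.05 without aged-SP replicate 1 and -0.53 without aged-SP replicate 4. With 2 and 3 libraries the intervals are wide, and Grem1 is limited by depth.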

Other observations

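Some other genes of the lists, named after their values were seen, had levels set by single libraries or differences close to those described. Nog, or noggin, a BMP antagonist, was at 94.5 CPM in aged-SP replicate 1 but at 20.5 in aged-SP replicate 4, against 24.6, 9.34 and 11.8 CPM in the young-SP libraries, so the groups overlapped (log2 fold change 1.92, edgeR adjusted p = 0.238). Wnt4, a signal of the stroma downstream of BMP2, was at 9.79 and 27.8 CPM in the aged-SP libraries and at 10.5, 5.14 and 4.21 CPM in the young-SP libraries, with aged-SP replicate 4 as the high one (log2 fold change 1.5, edgeR adjusted p = 0.245). Fstl1, a secreted follistatin-like protein, was at 318 and 395 CPM against 464, 687 and 649 CPM, lower in both aged-SP libraries (log2 fold change -0.75, edgeR adjusted p = 0.154). Msx1, a homeobox gene needed for uterine receptivity, was at 71.4 and 141 CPM against 164, 201 and 193 CPM (log2 fold change -0.81, edgeR adjusted p = 0.237). Bmpr1b, a type I BMP receptor, was at 18.1 and 23.7 CPM in the aged-SP libraries and at 26.3, 8.75 and 7.61 CPM in the young-SP libraries. Young-SP replicate 1 was thus the highest of the 5, and without it the log2 fold change was 1.34 (edgeR adjusted p = 0.0359).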
